A study of Mus musculus with 288 samples.

Results

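The genes described here encode the transcription factor NRF2 (gene Nfe2l2) and antioxidant enzymes of which most are its classical targets: Gclc and Gclm, Nqo1, Hmox1, Txnrd1, Srxn1, Sod1, Cat and Prdx6. Members were taken by gene symbol, as the probe sets annotated to that symbol alone, and 9 of the 10 had such a probe set among 19938 genes measured. Prdx6 was not analysed here. The samples were organs of C57/BL6 mice, entrained for 1 week to 12 h of light and 12 h of darkness per day and then released into constant darkness, with no other treatment. Sampling took place at intervals of 2 h between circadian times (CT) of 18 and 64 h, where CT0 starts the subjective day and CT12 the subjective night. Each of 288 arrays held the pooled RNA of 3 mice, and 12 tissues had 24 arrays each: liver, kidney, lung, adrenal gland, heart, aorta, skeletal muscle, white and brown adipose, and from the brain the hypothalamus, cerebellum and brainstem. The series maps daily rhythms across organs, so the questions are how much of each transcript a tissue holds, whether it follows a 24 h wave, when it peaks, and whether it drifts over the 2 days in darkness.

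NRF2 is held at a low protein level by KEAP1, an adaptor that hands it to a CUL3 ubiquitin ligase for destruction. Oxidants and electrophiles modify KEAP1, NRF2 then escapes, pairs with a small MAF protein and binds antioxidant response elements in its target genes, while BACH1 competes for the same elements. The targets make glutathione, regenerate thioredoxin and peroxiredoxins, reduce quinones and break down heme, and because NRF2 is regulated largely as a protein, its mRNA is not a measure of its activity.

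In build GRCm38.p6 the genes lie at chr2:75675513-75704663 (Nfe2l2), chr9:77754535-77794489 (Gclc), chr3:122245487-122267215 (Gclm), chr8:107388225-107403205 (Nqo1), chr8:75093618-75100593 (Hmox1), chr10:82833951-82897724 (Txnrd1), chr2:152105524-152111376 (Srxn1), chr16:90220762-90226333 (Sod1) and chr2:103453904-103485153 (Cat). Their reference promoters are shown because the antioxidant response element is the site that NRF2 binds. In RefSeq sequences of mouse build GRCm38.p6, 7 of the 10 members had 1 or more promoter windows, 9 windows in all, and the 250 bases before each start were searched on both strands for exact matches of 4 motifs. These were the core of the antioxidant response element (TGACNNNGC), the E-box CACGTG, the D-box TTANGTAA and the REV-ERB and ROR motif AGGTCA. A match of the first, read as its reverse complement, can hold the whole of the last, where the letters AG stand before GTCA. Apart from that, none contains another. The element's core was found before Nfe2l2 itself, Gclm, the second start of Txnrd1 and Sod1, printed here with the core in capitals (the last 3 carry it as its reverse complement) and up to 40 bases on each side.
Nfe2l2, chr2:75704855-75704913, minus strand: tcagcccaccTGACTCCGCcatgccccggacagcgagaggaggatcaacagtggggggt
Gclm, chr3:122245383-122245471, plus strand: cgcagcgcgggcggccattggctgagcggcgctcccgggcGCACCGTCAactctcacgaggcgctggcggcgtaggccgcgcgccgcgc
Txnrd1, chr10:82859074-82859162, plus strand: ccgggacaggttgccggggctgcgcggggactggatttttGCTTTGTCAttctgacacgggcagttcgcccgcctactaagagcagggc
Sod1, chr16:90220666-90220754, plus strand: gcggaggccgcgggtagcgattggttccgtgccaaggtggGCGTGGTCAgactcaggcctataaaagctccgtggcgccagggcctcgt
The cores began 240, 134, 92 and 56 bases before the start in Nfe2l2, Gclm, Txnrd1 and Sod1. Of 32851 promoter windows of the same length, 10.16% held such a core. Cat and Srxn1 instead held the REV-ERB and ROR motif AGGTCA, in capitals in the next lines, which 14.02% of windows held.
Cat, chr2:103485312-103485397, minus strand: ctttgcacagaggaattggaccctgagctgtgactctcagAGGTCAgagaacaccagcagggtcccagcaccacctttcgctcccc
Srxn1, chr2:152105274-152105354, plus strand: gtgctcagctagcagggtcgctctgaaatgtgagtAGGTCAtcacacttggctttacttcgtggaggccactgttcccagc
The Nqo1 window and the other two Txnrd1 windows held none of the 4 motifs, and no member's window held an E-box or a D-box, which 6.021% and 2.061% of all windows held. These matches describe the reference letters alone.

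All values below are deposited intensities on the log2 scale, and a wave was fitted within 1 tissue, over its 24 arrays. There was 1 array per time point, so errors measure the scatter of pools around the fitted wave. Markers of 12 tissues were each highest in the tissue they stand for, but markers of other tissues varied in some. In adrenal gland, 9 measured hepatocyte markers averaged from 6.95 at CT58 to 12.28 at CT50, against 13.41 to 13.52 in liver, so adrenal arrays held very unequal levels of liver transcripts. In brown adipose, 12 skeletal muscle markers averaged from 6.69 at CT36 to 11.64 at CT46. In skeletal muscle, 6 lymphocyte markers averaged from 5.62 to 7.83. No marker value was 0, and 22 arrays stood apart from their tissue by correlation or by a marker list. In whole organs, fewer cells of a type and less RNA per cell cannot be told apart.

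Transcript levels differed widely between tissues. The plot of levels by tissue shows them, with intervals given as SD over 24 arrays. The SD over all genes differed between tissues, from 1.78 to 2.03, so the arrays may have been normalized within each tissue, and the order of tissues is a description. Nfe2l2 was highest in liver at 11.18 ± 0.14 (SD, n = 24 arrays), kidney at 11.06 ± 0.08, lung at 10.92 ± 0.11 and heart at 10.92 ± 0.15. It was lowest in the brain, at 9.17 ± 0.11 in brainstem, 8.30 ± 0.14 in hypothalamus and 8.28 ± 0.10 in cerebellum. Skeletal muscle, the next tissue up at 10.38 ± 0.15, was 1.22 log2 units above brainstem, while liver and kidney, lung and heart, and hypothalamus and cerebellum were pairs of neighbours no further apart than the larger SD.

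**Figure D1:**
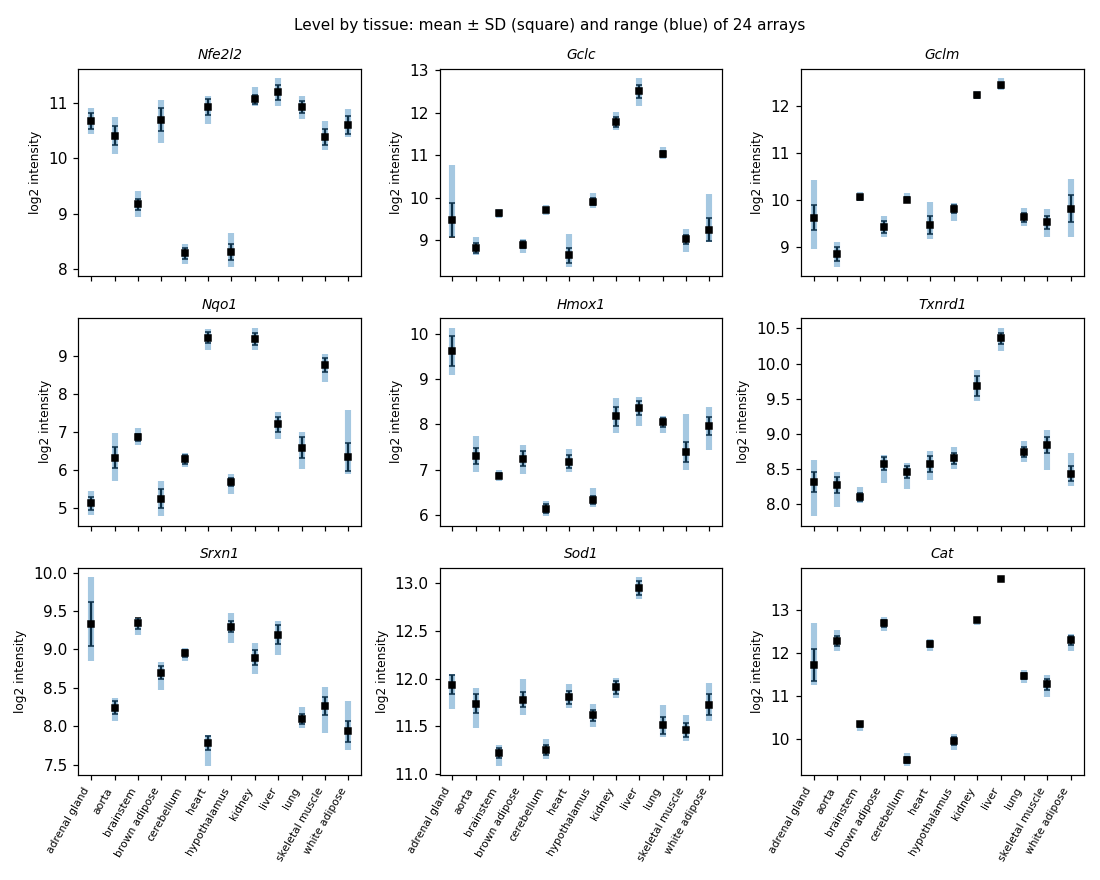
Level of 9 genes (log2 intensity, y axis, scaled for each gene) in 12 tissues (x axis). Squares and bars are mean ± SD and blue bars the range of 24 arrays: Nfe2l2 is lowest in the 3 brain regions, Hmox1 stands highest in adrenal gland at 9.63 and Txnrd1 in liver at 10.36.

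The glutathione genes and both enzymes that remove superoxide and hydrogen peroxide were highest in liver. Gclc, the catalytic subunit of glutamate-cysteine ligase, which starts glutathione synthesis, reached 12.50 ± 0.15 in liver and 11.77 ± 0.12 in kidney, and was lowest in heart at 8.65 ± 0.18. Gclm, the modifier subunit of the same enzyme, reached 12.44 ± 0.06 in liver and 12.23 ± 0.05 in kidney, and every other tissue lay at least 2.16 log2 units below kidney. Cat, the peroxisomal catalase, was at 13.72 ± 0.03 in liver and 9.52 ± 0.07 in cerebellum. Sod1, the cytosolic superoxide dismutase, ran from 12.95 ± 0.07 in liver to 11.23 ± 0.05 in brainstem, and ranked above 98.0% of all genes in each of the 12 tissues.

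Other members had different leading tissues. Nqo1, a quinone reductase, stood highest in heart at 9.48 ± 0.14, kidney at 9.45 ± 0.16 and skeletal muscle at 8.76 ± 0.18. It was lowest in adrenal gland at 5.12 ± 0.16 and brown adipose at 5.24 ± 0.25, where it ranked above only 16.6% and 15.6% of genes. Hmox1, the inducible heme oxygenase that opens the heme ring, was highest in adrenal gland at 9.63 ± 0.33, which was 1.26 log2 units above liver, next in order at 8.36 ± 0.16. Txnrd1, the cytosolic thioredoxin reductase, was highest in liver at 10.36 ± 0.08 and kidney at 9.68 ± 0.14. Srxn1, sulfiredoxin, which rescues over-oxidised peroxiredoxins, was highest in brainstem at 9.34 ± 0.07 and adrenal gland at 9.33 ± 0.29, which did not differ beyond their spread. By percentile among all genes of a tissue, the leading tissue was another for 4 of the 9 members: lung for Nfe2l2, kidney for Gclm and adrenal gland for Srxn1 and Sod1.

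A 24 h wave passed the test (limma's moderated F test, Benjamini-Hochberg adjusted p under 0.05) in 26 of 108 pairs of member and tissue, or 24.1%, against 10.979% of the pairs over all genes. The share over all genes had no filter on level, whereas 97 of the 108 member pairs lay above their tissue's median. The shares are therefore not like for like, and the members were chosen with earlier results of these data known. Lung had 7 of the 9 members rhythmic (20.9% of all genes there), liver 5 (26.8%) and kidney 4 (25.8%). Adrenal gland had 2 (5.89%), aorta 2 (5.09%), brainstem 2 (4.78%), brown adipose 2 (16.5%), heart 1 (8.64%) and skeletal muscle 1 (5.12%). None passed in cerebellum (5.49%), hypothalamus (1.8%) or white adipose (4.85%), where 2, 1 and 0 members had an unadjusted p under 0.05 and a fit to ranks called 0 in each. The waves were small beside the largest waves of the clock, with fitted peak-to-trough folds from 1.04 to 1.79. Arntl, Nr1d1 and Dbp, core genes and an output of the clock, were rhythmic in 12 of 12 tissues with folds of up to 12.1, 22 and 14.8. Their folds were smallest in hypothalamus, at 1.23, 1.67 and 1.67, where no member was called. Peaks fitted on each 24 h apart lay within 3.75 h of each other for all 26 waves. The waves were called on both days together, which favours such agreement, so it is not an independent repeat. In 14 of the 26 waves the 6 arrays nearest the peak time and the 6 nearest the trough did not overlap. Those arrays were picked by the peak fitted to the same values, so their separation here and below describes a wave and is no further test of it.

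**Figure D2:**
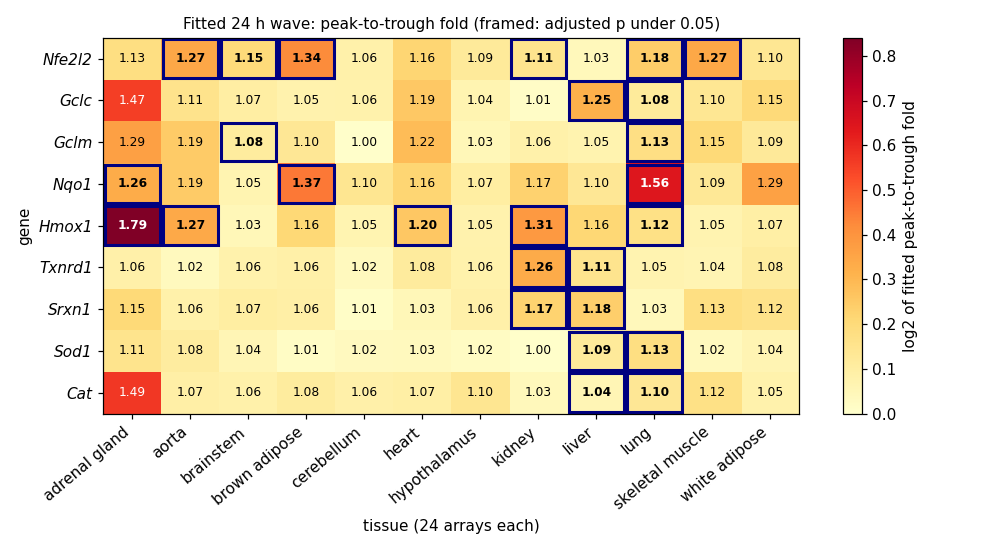
Fitted peak-to-trough fold of the 24 h wave for 9 genes (y axis) in 12 tissues (x axis, 24 arrays each), coloured on a log2 scale. Framed cells passed the adjusted p threshold: lung has 7 framed cells, and Hmox1 in adrenal gland the highest fold, 1.79; unframed Gclc and Cat in adrenal gland, 1.47 and 1.49, did not pass.

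Nfe2l2 was the most widely rhythmic member, with a wave in 6 tissues, and it peaked early in the subjective night in 4 of them. In brown adipose its level ran from 10.27 at CT26 through a median of 10.70 to 11.04 at CT38. The wave had a fold of 1.34 (95% interval 1.20 to 1.5) and peaked at CT14.6 ± 0.7 (SE), with an adjusted p of 0.00148. The arrays near the peak, 10.62 to 11.04, overlapped those near the trough, 10.27 to 10.89. In lung the level ran from 10.70 at CT28 through a median of 10.94 to 11.12 at CT62, and peak arrays, at 10.98 to 11.12, lay above all trough arrays, at 10.70 to 10.90. That wave had a fold of 1.18 (1.12 to 1.24), a peak at CT15.4 ± 0.6 and an adjusted p of 5.02e-05. Aorta (fold 1.27, 1.15 to 1.41, CT14.4 ± 0.8, adjusted p 0.00928) and brainstem (fold 1.15, 1.08 to 1.22, CT15.8 ± 0.8, adjusted p 0.0145) peaked within 1.4 h of each other. Both of these calls were lost when ranks replaced log2 values (adjusted p 0.051 and 0.0784). In aorta 4 brown adipocyte markers averaged 12.00 at CT62 to 12.59 at CT32, against 12.74 to 13.14 in brown adipose, and 7 heart muscle markers 8.37 at CT62 to 11.05 at CT28. Their part in the aorta waves of Nfe2l2 and Hmox1 was not tested, and the Nfe2l2 waves of aorta and brown adipose did not differ past the threshold (adjusted p 0.939).

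Skeletal muscle and kidney kept other times. In skeletal muscle Nfe2l2 ran from 10.15 at CT24 through a median of 10.39 to 10.67 at CT32. Its fold was 1.27 (1.18 to 1.36), with a peak at CT10.2 ± 0.5, late in the subjective day, and an adjusted p of 0.000177. The peak arrays, 10.41 to 10.67, did not overlap the trough arrays, 10.15 to 10.36. Lymphocyte markers of skeletal muscle were high at CT22, CT24, CT42, CT44 and CT46, on the trough side of this wave, and with them as a covariate the fold was 1.29 (adjusted p 0.0128). In kidney the wave was shallow, with a fold of 1.11 (1.06 to 1.16), and late, at CT19.8 ± 0.8, with an adjusted p of 0.00322. Between tissues the wave in skeletal muscle differed from that in kidney (peaks 9.57 h apart, adjusted p 0.000378). The skeletal muscle wave also differed from those of aorta, brainstem, brown adipose and lung (4.26 to 5.66 h apart, adjusted p 0.0147, 0.00908, 0.00243 and 0.00958). The test takes size and timing of a wave together, so these p-values do not test the hours. Kidney also differed from brown adipose (5.19 h apart, adjusted p 0.00271) and from aorta (5.31 h apart, adjusted p 0.0213). It did not pass against lung (4.32 h, adjusted p 0.307) or brainstem (3.91 h, adjusted p 0.54), and no pair among aorta, brainstem, brown adipose and lung passed. In liver, where the level was highest, values ran from 10.95 to 11.44 with no wave called (fold 1.03, adjusted p 0.912).

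**Figure D3:**
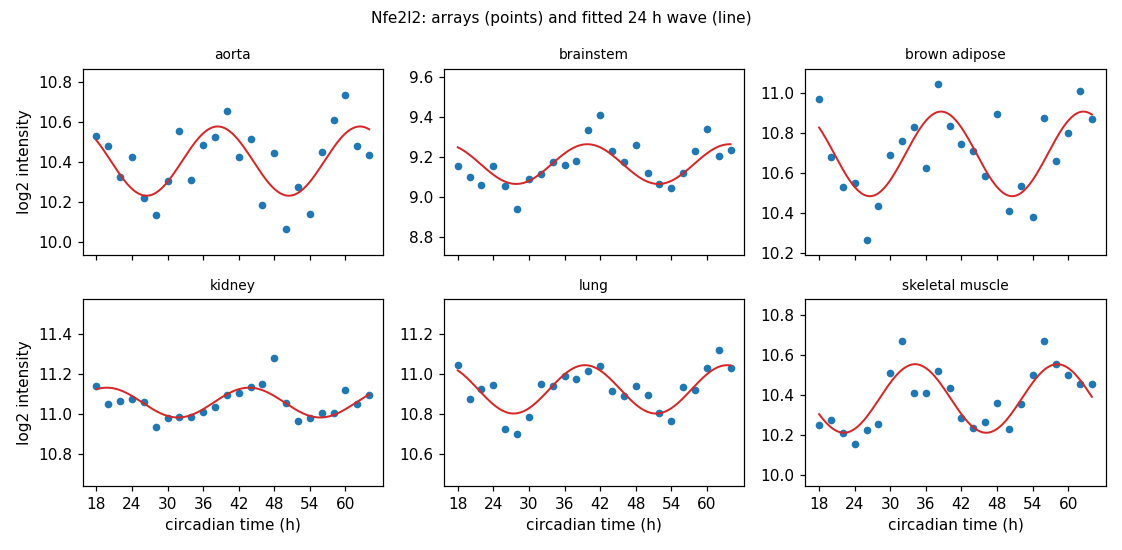
Nfe2l2 log2 intensity (y axis, the same span in every panel) over circadian time in h (x axis) in the 6 tissues where its wave passed the test. Points are arrays and lines the fitted 24 h waves: skeletal muscle peaks at CT10.2, 4 tissues between CT14.4 and CT15.8, and kidney at CT19.8.

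Gclc and Gclm encode subunits of 1 enzyme, and their waves were called in lung together and otherwise apart. Gclc in liver ran from 12.15 at CT38 through a median of 12.52 to 12.81 at CT24. The arrays near its peak, 12.49 to 12.81, lay above those near its trough, 12.15 to 12.43, and the fold was 1.25 (1.15 to 1.35) with a peak at CT0.62 ± 0.67 and an adjusted p of 0.000382. In lung the Gclc wave was shallow, at 1.08-fold (1.04 to 1.13, CT21.7 ± 1.0, adjusted p 0.0247), with overlapping peak and trough arrays, and it did not pass without CT34 or without CT58 (adjusted p 0.0616 and 0.0524). Gclm passed in lung at 1.13-fold (1.07 to 1.20, CT12.1 ± 0.9, adjusted p 0.00831) and in brainstem at 1.08-fold (1.04 to 1.12, CT19.7 ± 0.8, adjusted p 0.0137), where its 6 peak arrays, at 10.10 to 10.14, lay above the trough arrays, at 10.01 to 10.05. With 9 macrophage markers as a covariate, adjusted p was 0.052 in lung and 0.065 in brainstem. Those markers averaged 7.95 to 8.17 in lung and 6.87 to 7.07 in brainstem. The liver and lung waves of Gclc did not differ past the threshold (adjusted p 0.478), nor did the lung and brainstem waves of Gclm (adjusted p 0.417), although the fitted peaks of Gclm were 7.52 h apart.

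The fold of Gclc in adrenal gland was larger than in the tissues where it was called, but its highest value came from the array with the most liver transcripts. Gclc ran from 9.08 at CT24 through a median of 9.42 to 10.77 at CT50. Its fold was 1.47 (1.12 to 1.93) with an adjusted p of 0.179, and 1.20 (adjusted p 0.556) with the hepatocyte markers as a covariate. Cat in adrenal gland likewise ran from 11.25 at CT60 through 11.58 to 12.70 at CT50, with a fold of 1.49 (1.17 to 1.89, adjusted p 0.1) and of 1.21 (adjusted p 0.166) with that covariate. Gclm, which was also highest there at CT50, at 10.44, moved from a fold of 1.29 (1.07 to 1.56, adjusted p 0.214) to 1.18 (adjusted p 0.495). The drop was not particular to hepatocyte markers. With 2 measured red blood cell markers, also highest at CT50, at 8.02, the folds of Gclc, Cat and Gclm were 1.16, 1.19 and 1.17. Macrophage markers gave 1.44, 1.31 and 1.09, and lymphocyte markers 1.40, 1.47 and 1.35. The cause of these changes was not tested. None of these 3 genes passed without a covariate or with any of these lists. With array weights Gclc (fold 1.46, adjusted p 0.0163) and Cat (fold 1.46, adjusted p 0.0119) did.

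Hmox1 in adrenal gland had the largest wave among the members. It ran from 9.09 at CT42 through a median of 9.61 to 10.14 at CT30, and the second day repeated the course with its highest value at CT56, 10.12. All 6 arrays near the peak, at 9.81 to 10.14, lay above the 6 near the trough, at 9.09 to 9.50. The fold was 1.79 (1.60 to 2.00), the peak at CT8.18 ± 0.36 and the adjusted p 7.46e-07. With the hepatocyte markers as a covariate the fold was 1.81 (adjusted p 2.25e-06) and with macrophage markers, which stand for cells that recycle heme, 1.80 (adjusted p 1.76e-06). The macrophage markers averaged 7.54 to 7.96 there.

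Kidney ran almost opposite to adrenal gland for Hmox1. Values in kidney ran from 7.80 at CT28 through a median of 8.17 to 8.60 at CT48, and peak arrays, 8.01 to 8.54, overlapped trough arrays, 7.80 to 8.17. The fold was 1.31 (1.15 to 1.48), with a peak at CT18.5 ± 0.9 and an adjusted p of 0.00474. With lymphocyte markers, which averaged 5.74 to 6.01 in kidney, as a covariate the fold was 1.23 and no longer called (adjusted p 0.107). Peaks in adrenal gland and kidney were 10.4 h apart and the waves differed with an adjusted p of 1e-16.

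Hmox1 also passed in aorta, heart and lung, but these 3 calls were close to the threshold. Aorta had a fold of 1.27 (1.13 to 1.42, CT10.8 ± 0.9, adjusted p 0.0329), heart of 1.20 (1.09 to 1.32, CT13.0 ± 1.0, adjusted p 0.0395) and lung of 1.12 (1.05 to 1.21, CT8.53 ± 1.11, adjusted p 0.039). Peak and trough arrays overlapped in each. The aorta call was lost without any 1 of 7 arrays (CT22, CT32, CT34, CT44, CT46, CT56 or CT60, adjusted p 0.05 to 0.0819). The heart call was lost without any 1 of 9 (CT22, CT24, CT26, CT28, CT36, CT38, CT48, CT54 or CT60, 0.0506 to 0.0938), and the lung call without any 1 of 10 (CT20, CT22, CT28, CT36, CT42, CT44, CT46, CT52, CT54 or CT58, 0.052 to 0.102). All 3 were lost with ranks (0.0855, 0.0658 and 0.113). Without the arrays that stood apart, aorta and heart had adjusted p of 0.0588 and 0.103. With a straight line aorta and lung had 0.0829 and 0.0805, under array weights aorta had 0.066, and under quantile normalization lung had 0.0917. Macrophage markers as a covariate gave 0.183 in heart and 0.0977 in lung, and 4 other marker lists gave 0.0558 to 0.0686 in heart. Against kidney, the waves of aorta (peaks 7.75 h apart), lung (10.01 h) and heart (5.50 h) differed with adjusted p of 0.000102, 0.00123 and 0.0193. Pairs among aorta, heart and lung did not pass (adjusted p 0.401 to 0.642).

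**Figure D4:**
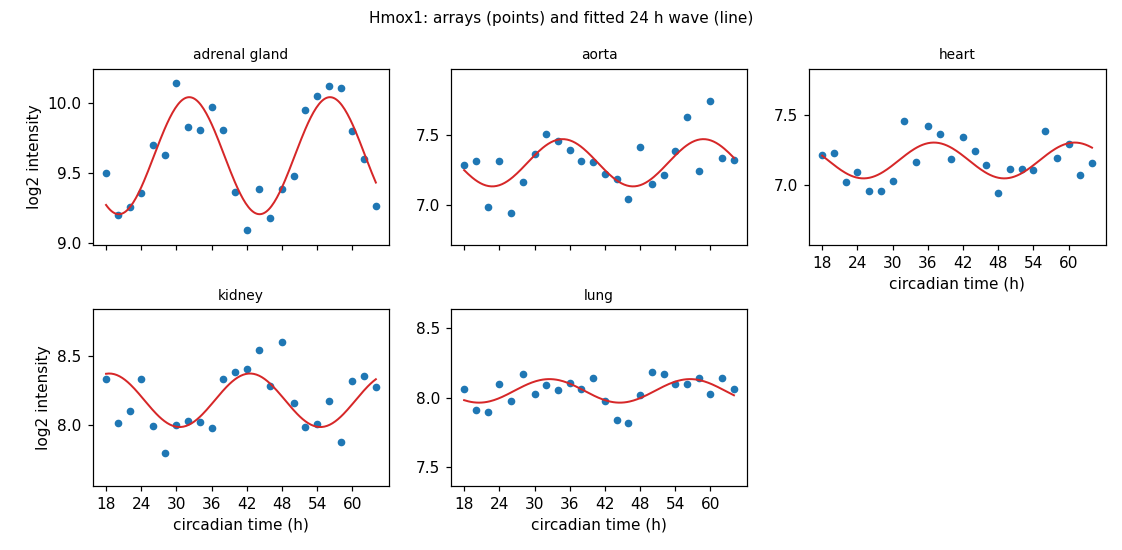
Hmox1 log2 intensity (y axis, the same span in every panel) over circadian time in h (x axis) in the 5 tissues where its wave passed the test. Points are arrays and lines the fitted 24 h waves: adrenal gland peaks at CT8.18 and kidney at CT18.5, and the lung wave, 1.12-fold, is the shallowest.

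Nqo1 passed the test in lung, brown adipose and adrenal gland, of which lung had the highest level, 6.59. In lung it ran from 6.03 at CT48 through a median of 6.62 to 7.0 at CT58. Peak arrays, at 6.77 to 7.0, lay above trough arrays, at 6.03 to 6.41, and the fold was 1.56 (1.39 to 1.76) with a peak at CT9.08 ± 0.50 and an adjusted p of 8.92e-06. It stayed called under all 36 alternatives tried. The filter of genes under the tissue median was not among them, because Nqo1 ranked at percentile 43.3 in lung. In brown adipose it ran from 4.78 at CT64 through a median of 5.20 to 5.71 at CT42, with a fold of 1.37 (1.18 to 1.58), a peak at CT21.7 ± 0.9 and an adjusted p of 0.00776. Skeletal muscle markers varied widely between the brown adipose arrays, and with them as a covariate the fold was 1.22 and no longer called (adjusted p 0.203). With the macrophage markers, averaging 7.01 to 7.94 in brown adipose, it was 1.22 (adjusted p 0.133), and with 2 measured red blood cell markers 1.33 (adjusted p 0.2).

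In adrenal gland Nqo1 ran from 4.80 at CT44 through a median of 5.11 to 5.44 at CT30, with a fold of 1.26 (1.14 to 1.38), a peak at CT4.37 ± 0.80 and an adjusted p of 0.0113. There the muscle, macrophage and red blood cell covariates gave adjusted p of 0.0688, 0.112 and 0.108, and 0.0516 was reached without the arrays that stood apart (CT28, CT50 and CT52). The brown adipose and lung waves were 11.4 h apart and differed with an adjusted p of 5.81e-09. The adrenal gland wave differed from that of brown adipose (peaks 6.70 h apart, adjusted p 0.00722) and from that of lung (4.71 h apart, adjusted p 0.00566). The deposited values carry no detection call, and Nqo1 was as low in both tissues as markers of foreign tissues: 4 cerebellum markers averaged 5.25 in adrenal gland and 5.40 in brown adipose. Nqo1 was therefore not shown to lie above background in adrenal gland or brown adipose, and the folds, peak times and differences given for them rest on such values. In lung the cerebellum markers averaged 4.97, below the Nqo1 trough arrays at 6.03 to 6.41. There 4 brown adipocyte markers averaged 6.30, within those trough arrays, so not every foreign list lay below the lung trough.

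The thioredoxin branch, Txnrd1 and Srxn1, was called rhythmic in kidney and liver alone among the 12 tissues, at the end of the subjective night in both. With quantile normalization within the tissue, Srxn1 was also called in skeletal muscle (fold 1.18, adjusted p 0.00396). Txnrd1 in kidney ran from 9.47 at CT38 through a median of 9.68 to 9.90 at CT48. Peak arrays, at 9.74 to 9.90, lay above trough arrays, at 9.50 to 9.69, and the fold was 1.26 (1.18 to 1.35) with a peak at CT21.3 ± 0.5 and an adjusted p of 1.21e-05. In liver its fold was 1.11 (1.05 to 1.17, CT21.9 ± 1.0, adjusted p 0.0151), with overlapping peak and trough arrays, and under quantile normalization within the tissue 1.07 (adjusted p 0.0741). Srxn1 in kidney ran from 8.68 at CT34 through a median of 8.89 to 9.09 at CT44, with a fold of 1.17 (1.11 to 1.23), a peak at CT23.0 ± 0.6 and an adjusted p of 0.000219. In liver it ran from 8.93 at CT34 through 9.21 to 9.38 at CT24, with a fold of 1.18 (1.09 to 1.27), a peak at CT23.3 ± 0.8 and an adjusted p of 0.0039. Peak and trough arrays of Srxn1 did not overlap in either organ. With lymphocyte markers, at 6.24 to 6.62 in liver, as a covariate the liver call was lost (fold 1.15, adjusted p 0.0518). Kidney and liver waves did not differ past the threshold for Txnrd1 (0.606 h, adjusted p 0.27) or Srxn1 (0.384 h, adjusted p 1), which does not show them to be equal. Being called in these organs alone is not itself a difference: of 66 pairs of tissues, Txnrd1 differed in 10, all of which held kidney, and Srxn1 in 6, of which 4 held liver.

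Sod1 and Cat had shallow waves in liver and lung. Sod1 in lung ran from 11.39 at CT26 through 11.50 to 11.72 at CT60, with a fold of 1.13 (1.08 to 1.19), a peak at CT15.0 ± 0.7 and an adjusted p of 0.00106. In liver it ran from 12.83 at CT56 through 12.95 to 13.06 at CT24, with a fold of 1.09 (1.04 to 1.14), a peak at CT21.6 ± 1.0 and an adjusted p of 0.0189. The liver call was lost with a straight line (adjusted p 0.077), quantile normalization (0.116), red blood cell markers (0.0505) or lymphocyte markers (0.0695) in the fit. Both waves of Sod1 were 6.63 h apart and differed (adjusted p 0.0123). Cat in liver moved least of all waves called, from 13.66 at CT36 through 13.73 to 13.76 at CT32 with a fold of 1.04 (1.02 to 1.06, CT1.46 ± 0.89, adjusted p 0.00631). Its peak arrays, at 13.73 to 13.75, lay above its trough arrays, at 13.66 to 13.72, but its highest value, at CT32, fell outside the peak arrays. Cat in lung had a fold of 1.10 (1.05 to 1.14, CT6.20 ± 0.80, adjusted p 0.00323), with overlapping arrays, and did not differ from liver past the threshold (adjusted p 0.774).

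In lung the 7 peaks spread from CT6.20 for Cat, CT8.53 for Hmox1 and CT9.08 for Nqo1 through CT12.1 for Gclm, CT15.0 for Sod1 and CT15.4 for Nfe2l2 to CT21.7 for Gclc. In liver the 5 peaks lay closer, from CT21.6 for Sod1 through CT21.9, CT23.3 and CT0.62 for Txnrd1, Srxn1 and Gclc to CT1.46 for Cat. The 4 kidney peaks ran from CT18.5 for Hmox1 and CT19.8 for Nfe2l2 to CT21.3 for Txnrd1 and CT23.0 for Srxn1. Over all tissues 17 of the 26 peaks fell in the subjective night and 9 in the subjective day. The spread within an organ was not tested.

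**Figure D5:**
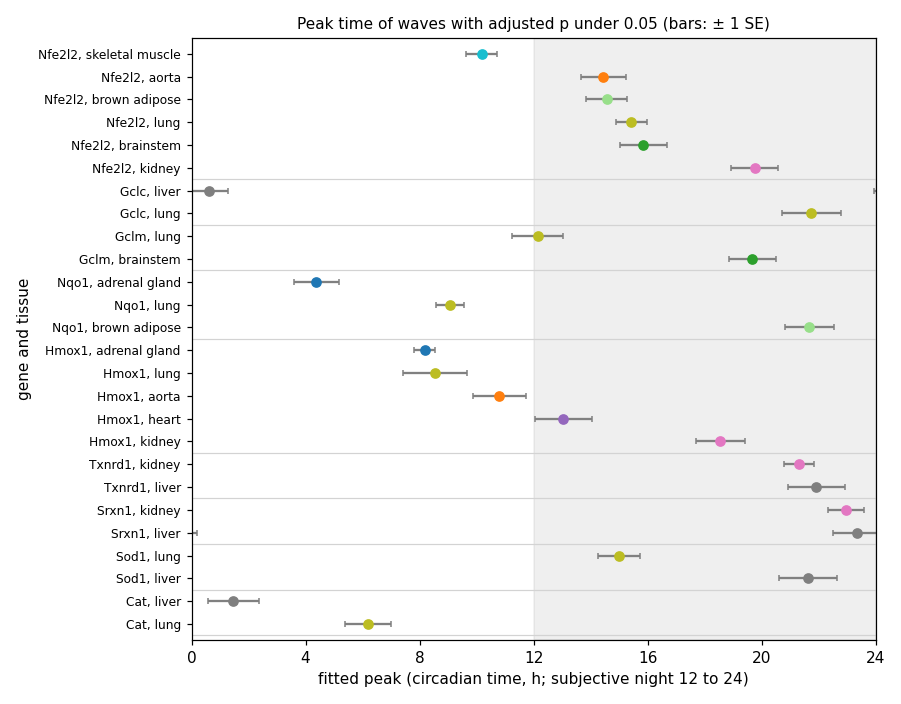
Fitted peak in circadian time (h, x axis) of the 26 waves that passed the test, by gene and tissue (y axis), with bars of ± 1 SE and the subjective night shaded. Points are coloured by tissue: 17 lie in the night, and the Txnrd1 and Srxn1 peaks lie between CT21.3 and CT23.3.

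The wave itself differed between tissues for each of the 9 members in 1 fit to all 288 arrays (moderated F test of 22 interaction coefficients), as it did for 49.6% of all genes. Adjusted p ran from 2.74e-15 for Hmox1 to 0.00691 for Sod1. Hmox1 and Nqo1 each differed in 20 of 66 pairs of tissues, Nfe2l2 in 14, Gclc and Cat in 11, Txnrd1 in 10, Gclm in 8, and Srxn1 and Sod1 in 6, against 9.46% of the pairs over all genes. The fit shares 1 spread per gene over all tissues, although the SD of Cat was 0.364 in adrenal gland and 0.026 in liver. P-values of pairs that hold a tissue with wide scatter can therefore be too small. For Gclm and Cat every pair that differed, and for Gclc 10 of 11, held adrenal gland, whose hepatocyte markers ranged widely. With those markers as a covariate in each tissue but liver, Gclc differed in 5 pairs, of which 1 held adrenal gland, Gclm in 5, of which 4 did, and Cat in 8, of which 6 did. Without the adrenal arrays the test passed for 7 of the 9, with Gclm at an adjusted p of 0.0882 and Sod1 at 0.109. The 11 pairs of Hmox1 that held adrenal gland stayed at 11 with the covariate. Skeletal muscle was in 9 of the 14 pairs of Nfe2l2, and brown adipose in 11 of the 20 of Nqo1.

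A straight trend over the 2 days passed in 2 of 108 pairs, both upward and both in kidney, where 1.09% of genes rose and 1.88% fell. Sod1 in kidney, which had no wave (adjusted p 0.993), was at 11.80 to 11.92 with a median of 11.86 on the first day and at 11.90 to 12.01 with a median of 11.98 on the second. Of the 12 arrays of the second day, 10 lay above the first day's range, and the slope was 0.104 ± 0.016 log2 units per day (SE, adjusted p 0.00603). It was called under all 36 alternatives. Srxn1 in kidney was at 8.68 to 8.97 on the first day and 8.81 to 9.09 on the second, with a slope of 0.0789 ± 0.021 log2 units per day (adjusted p 0.0374). Both days overlapped, and the call was lost under 16 of 36 alternatives, among them each of 11 single arrays left out (CT18, CT22, CT32, CT34, CT44, CT46, CT48, CT52, CT54, CT56 or CT60, adjusted p 0.0503 to 0.103). No member's trend passed in the other 11 tissues, by this test or by ranks. An unadjusted p under 0.05 was reached in 19 of the 108 pairs. Of all genes 0.396% rose and 0.0201% fell in brainstem and 0.0401% rose and 1.7% fell in skeletal muscle, while 0% did either in the other 9 tissues.

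Likeness to Nfe2l2 was measured as Pearson's r of log2 values centred on each tissue mean over all 288 arrays, which share mice and arrays, so it is given as a description. The genes most like it were Cgrrf1 (r = 0.59), Kpna2 (0.56), Nufip2 (0.55), Snord14e (0.53) and Lin52 (0.51). Among 19937 other genes the members ranked 418 for Hmox1 (r = 0.32), 556 for Srxn1 (0.30), 578 for Txnrd1 (0.30) and 1086 for Gclm (0.26), while Nqo1, Cat, Gclc and Sod1 had r between -0.01 and 0.08. Within single tissues, over 24 arrays each, r with Nfe2l2 varied widely. It ran from -0.05 in adrenal gland to 0.84 in kidney for Hmox1, from -0.10 in white adipose to 0.77 in kidney for Txnrd1, and from -0.08 in white adipose to 0.68 in aorta for Gclm. For Srxn1 it ran from -0.29 in cerebellum to 0.72 in adrenal gland, for Gclc from -0.41 in adrenal gland to 0.68 in aorta, and for Nqo1 from -0.48 in kidney to 0.52 in hypothalamus.

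Of 14 genes that regulate NRF2 or compete with it, 26 of 168 pairs of gene and tissue were rhythmic. Bach1, the repressor, passed in aorta at 1.18-fold (CT8.67), kidney at 1.10-fold (CT16.5), liver at 1.34-fold (CT9.00) and lung at 1.15-fold (CT8.25). Sqstm1, an autophagy receptor that sequesters KEAP1, passed in 4 tissues, most in liver, at 1.31-fold (1.24 to 1.38) with a peak at CT1.24 and an adjusted p of 9.61e-08. Btrc, an F-box protein of another ligase that degrades NRF2, passed in 3, most in white adipose at 1.25-fold. Keap1 passed in lung alone, at 1.09-fold (adjusted p 0.0309).

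Of 13 measured genes of glutathione metabolism, 24 of 156 pairs were rhythmic. Oplah, which recovers glutamate from oxoproline, passed in brown adipose, kidney, liver and lung. Ggct, which makes oxoproline, passed in brown adipose, kidney and liver, and was largest in kidney at 1.44-fold (1.31 to 1.58, CT1.26, adjusted p 3.77e-06). Gpx8, a glutathione peroxidase family member of the endoplasmic reticulum, passed in brown adipose, kidney and lung at 1.26, 1.29 and 1.10-fold.

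The thioredoxin and peroxiredoxin list had 34 of 168 pairs rhythmic. Txnrd3, a relative of Txnrd1, passed in 8 tissues with folds of 1.14 to 1.38, and its peaks, from CT3.67 in kidney to CT11.9 in lung, fell in the subjective day. Glrx, glutaredoxin, passed in 6, with folds of 1.84 in aorta, 1.77 in brown adipose and 1.85 in white adipose and peaks there between CT21.5 and CT22.3. Txnip, which binds and inhibits thioredoxin, passed in 4, most in brainstem at 1.39-fold (CT11.1, adjusted p 0.000144). Of superoxide genes 8 of 36 pairs were rhythmic. Sod2, the mitochondrial dismutase, passed in lung at 1.21-fold with a peak at CT15.2, beside Sod1 there at CT15.0, and Ccs, which loads copper into SOD1, in 4 tissues with folds of 1.09 to 1.24.

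NADPH supply, which the reductases consume, had 11 of 60 pairs rhythmic, led by Pgd of the pentose phosphate pathway in liver at 1.53-fold (CT21.1, adjusted p 2.22e-07). Me1, malic enzyme, passed in 3 tissues and Tkt, transketolase, in 2, with folds of 1.63 in brown adipose and 1.64 in skeletal muscle. Detoxification genes had 54 of 204 pairs rhythmic. Ephx1, an epoxide hydrolase, passed in 9 tissues with peaks between CT8.49 and CT11.8. Gsta3, a glutathione transferase, passed in 8 and was largest in brown adipose at 3.16-fold (2.42 to 4.13). Osgin1 passed in 6, at 2.48-fold in white adipose and 2.21-fold in liver. Gstp1 in kidney was the only gene of the wider lists with a trend, at 0.209 log2 units per day (adjusted p 0.0453).

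Heme and iron genes, which handle the products of Hmox1, had 14 of 96 pairs rhythmic. Slc40a1, ferroportin, which exports iron, passed in 6 tissues, in adrenal gland at 1.85-fold with a peak at CT3.93. Ftl1, a ferritin light chain, passed in adrenal gland at 1.23-fold (CT4.66) and in cerebellum. Blvrb, a biliverdin reductase, passed in kidney, liver and lung, at 1.29, 1.20 and 1.12-fold. Each list is a count beside the 10.979% of pairs over all genes, which had no filter on level, with no test of the list.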

How the data were processed

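The deposited values are microarray intensities on a linear scale, 1 per probe set and array, from 6.9 to 45307.8. Per the submitters' processing notes the authors used Affymetrix Expression Console and GCRMA, with versions and order not given in the sources used here. Log2 of the deposited intensities was taken with no pseudocount. Of 35556 probe sets, 21789 had 1 gene symbol in the platform annotation, 1621 several and 12146 none, and a gene was represented by its probe set of highest mean, which gave 19938 genes. Each measured member had 1 probe set. Gene names, positions and promoters come from RefSeq tables of GRCm38.p6, which held 21698 of the identifiers.

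Cosine and sine terms of 24 h were fitted per tissue with limma 3.58.1 in R 4.3.3 (moderated F test, trend on mean expression, Benjamini-Hochberg over all genes). Slopes were tested beside those terms, and tissue differences in 1 fit to 288 arrays with 1 spread per gene. The test of a tissue difference takes size and timing of a wave together, and peak times had no test of their own. P-values measure only the spread of pools. Fold is 2 raised to the fitted difference of peak and trough. An array stood apart if a marker list's mean was off its tissue's median by more than 1 log2 unit and 5 scaled median absolute deviations, or if its median correlation fell short by more than 0.003 and 5 such deviations. The scripts were tested on simulated data.

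The members and all lists were chosen with earlier results of these data known. Named genes are the members, 3 clock genes, the 3 genes of each wider list rhythmic in most tissues (ties by fold) and the 5 genes most like Nfe2l2; Keap1 and Gstp1 were added after their values were seen. The circadian times are shared by all tissues, and the pools at 1 time may come from the same mice. Alternatives were ranks, a straight line, array weights, arrays left out, filters, a pseudocount of 16, quantile normalization, all probe sets, a block and marker covariates.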

Additional observations from a re-analysis of the deposited data

Results flagged for a closer look

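Each of the 9 members had a 24 h wave that differed between tissues by the test of the difference itself, over 12 tissues and 288 arrays. The adjusted p was 5.72e-05 for Nfe2l2, 9.73e-05 for Gclc, 0.00128 for Gclm, 6.27e-06 for Nqo1, 2.74e-15 for Hmox1, 0.000779 for Txnrd1, 0.00157 for Srxn1, 0.00691 for Sod1 and 2.59e-06 for Cat. Of all genes 49.6% passed the same test. Peaks of called waves lay 10.4 h apart between adrenal gland and kidney for Hmox1, 11.4 h apart between brown adipose, where Nqo1 was not shown to lie above background, and lung for Nqo1, and 9.57 h apart between kidney and skeletal muscle for Nfe2l2. The differences of Gclm and Sod1 did not pass without the adrenal arrays (adjusted p 0.0882 and 0.109).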

How the results depend on the processing

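Of 26 waves, 12 were called under every alternative tried, 8 were lost under 1 or 2 and 6 under 3 or more. The following counts of rhythmic members moved by over 1.5 times. They moved from 2 in adrenal gland to 5 with array weights (Nfe2l2, Gclc and Cat were gained) and to 1 without the arrays that stood apart, without genes under the tissue median, or with skeletal muscle, macrophage or red blood cell markers as a covariate. In aorta 2 became 0 with ranks and 1 with a straight line or without the arrays that stood apart. In brainstem 2 became 1 with ranks or macrophage markers, and in brown adipose 2 became 1 without genes under the median or with muscle, macrophage or red blood cell markers. Heart went from 1 to 0 with ranks, without the arrays that stood apart, and with macrophage, red blood cell, hepatocyte or lymphocyte markers, and to 2 with array weights, 3 without low genes and 4 under quantile normalization. Cerebellum went from 0 to 1 with a straight line or red blood cell markers, and hypothalamus from 0 to 1 with array weights. Skeletal muscle went from 1 to 2 with array weights and to 3 under quantile normalization (Gclm and Srxn1 were gained). Liver went from 5 to 3 with lymphocyte markers. Smaller gains were Gclc in brainstem (to 3 under quantile normalization or with muscle, hepatocyte or lymphocyte markers), Gclm in aorta (to 3 under quantile normalization or without low genes), Nfe2l2 in adrenal gland (to 3 under quantile normalization), and Gclm, Nqo1 or both in kidney (up to 6 without low genes). The cause was not tested, except that Nqo1 in adrenal gland and brown adipose lay under the median and was not tested without low genes. Nqo1 in lung also lay under the median and was left out by that filter. The count of trends, in kidney and in all, went from 2 to 1 with ranks, without the arrays that stood apart, without low genes, under quantile normalization and with lymphocyte markers. The hepatocyte and lymphocyte covariates and the fit without adrenal gland were chosen after seeing the data.

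With 1 array left out, the total was 24 to 29 waves and 1 to 2 trends, with 1 to 3 waves in aorta, 0 to 3 in heart, 4 to 5 in kidney and 5 to 7 in lung; adrenal gland, brainstem and brown adipose stayed at 2, liver at 5, skeletal muscle at 1, and cerebellum, hypothalamus and white adipose at 0, and trends ran from 1 to 2 in kidney and stayed at 0 elsewhere. With circadian time as a replicate block, all 9 members still differed between tissues (adjusted p 0.00895 for Sod1). Highest tissue by log2 mean was also highest by percentile, or after quantile normalization over all arrays, for 5 of the 9 members. After that normalization 33 of the 108 levels of member and tissue counted as unchanged and 75 as moved. Of 7826 alternative fits of single waves and trends, 77 lost a call, 50 gained one and 0 turned direction. Most of these fits were of waves and trends that were not called and had no call to lose. The 77 losses therefore cannot be read as a share of 7826. Signal low on the scale limits Nqo1 in adrenal gland and brown adipose, where the probe set lay under the tissue median. In lung the Nqo1 probe set, at percentile 43.3, also lay under the tissue median.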
